A study of Mus musculus with 4 samples.

Results

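The transcripts of 10 genes that govern the G1 phase of the cell cycle were examined in granulosa cells (GCs) of the mouse, which enclose and nourish the growing oocyte. They were 3 D cyclins (Ccnd1, Ccnd2, Ccnd3), 2 E cyclins (Ccne1, Ccne2), the kinases Cdk4 and Cdk6, the inhibitors Cdkn1a and Cdkn1b, and Rb1. The genes were chosen by name, and each of the 10 symbols matched 1 of the 55385 genes in the count table. GCs came from preantral follicles of Kunming mice aged 12 to 14 days that had been cultured for 6 days with neurotrophin-4 (NT4 group, 2 libraries) or without it (Control group, 2 libraries). By the study's methods, the medium of both groups contained follicle-stimulating hormone (FSH), and the 2 samples of a group came from independent experiments. The p-values rest on the spread between these samples, which edgeR estimates for each gene with the help of the other genes tested.

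Progress through G1 is set by cyclins, the regulatory subunits of cyclin-dependent kinases. D cyclins activate CDK4 and CDK6, which phosphorylate the retinoblastoma protein encoded by Rb1, and E2F transcription factors are then released. E cyclins, themselves E2F targets, activate CDK2 and carry cells into S phase. The CIP/KIP inhibitors p21 (Cdkn1a) and p27 (Cdkn1b) restrain these kinases. In the ovary, cyclin D2 is the D cyclin known for the proliferative response of GCs to FSH, and female mice without Ccnd2 are sterile.

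The D cyclins are related in sequence, so the starts of their coding sequences are shown to place the stretch that all of them share. The sequences come from GENCODE M21 transcripts on GRCm38 and lie on chromosome 7 (144939634 to 144939693, minus strand) for Ccnd1, chromosome 6 (127150714 to 127150773, minus strand) for Ccnd2 and chromosome 17 (47593655 to 47593714, plus strand) for Ccnd3. The first 60 coding bases are given 5′ to 3′, with capitals marking the 5 codons of the LxCxE motif, through which D cyclins bind the retinoblastoma protein.
Ccnd1: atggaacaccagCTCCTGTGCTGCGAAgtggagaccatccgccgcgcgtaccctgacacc
Ccnd2: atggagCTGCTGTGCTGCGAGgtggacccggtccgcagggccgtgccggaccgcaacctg
Ccnd3: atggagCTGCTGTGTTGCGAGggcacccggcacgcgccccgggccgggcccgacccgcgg
Over the whole coding sequence, Ccnd2 was identical to Ccnd1 at 71.3% of 843 aligned bases and to Ccnd3 at 68.9% of 852 aligned bases. The longest run of identical bases between these transcripts was 20 for Ccnd2 and Ccnd1, and 14 for Ccnd2 and Ccnd3. The D cyclins are therefore not near-identical copies of each other in the annotation.

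Values of a group are given throughout with replicate 1 before replicate 2. The libraries held totals of 49520092 to 78704020 counts, where about 4 counts stand for 1 read pair. Values are given as CPM, the counts of a gene per 1000000 counts of its library. A gene with no count could lie at up to 0.152 to 0.242 CPM (3 read pairs, by library), for counting error only. Markers of GCs were abundant, with the 12 listed genes summing to 12665 and 15824 CPM in Control and 10889 and 17305 CPM in NT4. The 12 oocyte markers summed to 79.0 to 114 CPM over the 4 libraries. The 7 endothelial markers summed to 20.7 to 30.3 CPM. The 8 immune markers summed to 1.44 to 3.39 CPM, and the 7 surface epithelium markers to 34.1 to 43.2 CPM, with Krt8 at 26.2 to 33.4 CPM, Krt18 at 7.92 to 11.3 CPM and no count for Krt19 and Upk1b. The 10 theca and stroma markers, Cyp17a1 and collagens among them, reached sums of 1588 and 1522 CPM in the Control libraries and of 2219 and 1753 CPM in those of NT4. In these bulk samples, fewer cells of a type and less RNA per cell cannot be told apart. In both groups, 9 of the 12 GC markers were lower in the library numbered 1 than in that numbered 2, with Inha, Inhba and Inhbb making up most of the sum. The other 3 (Amh, Amhr2 and Kitl) were higher there, Amh at 303 against 151 CPM in Control and at 393 against 89.6 CPM in NT4.

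The level of the 10 genes was compared first, on the TPM scale (CPM recomputed after division by exon length). Cdk4 stood highest at a mean of 367 TPM over the 4 libraries, followed by Ccnd2 at 119 TPM. After them came Cdkn1a (32.3 TPM), Rb1 (27.5 TPM), Cdkn1b (27.0 TPM), Ccne2 (18.5 TPM), Cdk6 (14.4 TPM), Ccne1 (13.0 TPM), Ccnd3 (8.80 TPM) and Ccnd1 (2.94 TPM). The ranges over libraries did not overlap between Cdk4 and Ccnd2, Ccnd2 and Cdkn1a, Cdkn1b and Ccne2, Ccne2 and Cdk6, or Ccnd3 and Ccnd1. The ranges of Cdkn1a and Rb1 overlapped, as did those of Rb1 and Cdkn1b, of Cdk6 and Ccne1, and of Ccne1 and Ccnd3. Within each library, however, Cdkn1a exceeded Cdkn1b by 1.09 to 1.25 times. With the longest transcript as length, Cdkn1a, Rb1 and Cdkn1b no longer overlapped, Cdkn1a exceeded Cdkn1b by 1.86 to 2.13 times, and Ccnd3 moved in the order from rank 9 to rank 7, with a mean of 16.2 TPM. Among all genes with a length, Cdk4 ranked 378 and Ccnd2 ranked 1227 by mean TPM. In the plot of the genes by library, the libraries spread most for Ccnd3 (2.23-fold from lowest to highest), followed by Ccnd1 (1.41-fold) and Ccne1 (1.36-fold).

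**Figure D1:**
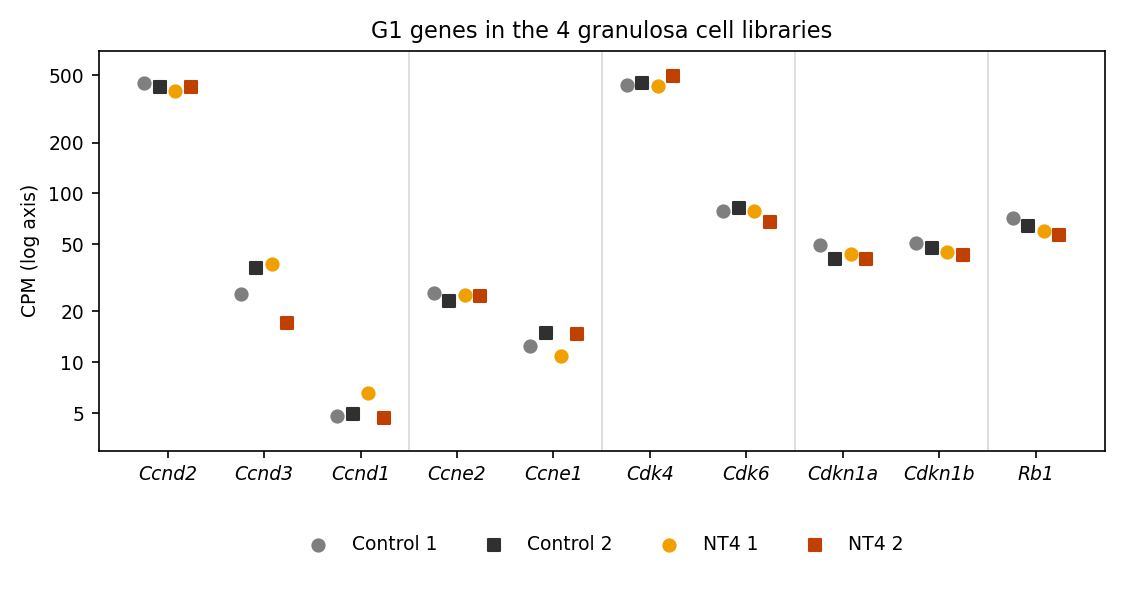
CPM of the 10 G1 genes on a log axis, with 1 point for each library (grey and black, Control; orange and red, NT4; circles, replicate 1; squares, replicate 2). CPM is not scaled to gene length. Ccnd2 and Cdk4 lie between 405.953 and 496.061 CPM in every library, and Ccnd3 spreads from 17.2 to 38.2 CPM.

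Ccnd2 (ENSMUSG00000000184, GRCm38 chromosome 6, 127125162 to 127152193) was at 453 and 426 CPM in Control and at 406 and 426 CPM in NT4. All 4 libraries were within a factor of 1.12 of each other, and the groups overlapped. Among 10057 genes with a mean of at least 10 CPM, 12.5% had a narrower span from the lowest to the highest library on normalized log2 CPM. The log2 fold change of NT4 over Control was −0.06 (SE 0.11, n = 2 per group), with an edgeR adjusted p of 0.9999. Its 95% interval ran from 0.790-fold to 1.17-fold.

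Ccnd1 (ENSMUSG00000070348, chromosome 7, 144929931 to 144939925), the D cyclin that many growth factors induce, was at 4.79 and 4.96 CPM in Control and at 6.62 and 4.68 CPM in NT4. NT4 1 stood above the other 3 libraries, and the groups overlapped. The log2 fold change was 0.23 (SE 0.25, edgeR adjusted p 0.9999), and without NT4 1 it was −0.03. NT4 1 was also the library with the highest sum of theca and stroma markers, all 10 of which had a log2 fold change above 0, with 8 of them higher in both NT4 libraries than in both Control libraries (13.4% of all genes tested were placed so). By edgeR's quasi-likelihood test, 4 of these 10 markers had an unadjusted p under 0.05, as did 1.99% of all genes, and 0 passed the adjustment. The part of these markers in the value of Ccnd1 was not tested. Exons of Ccnd1 share 1100 bases with LTO1 on the opposite strand, and that gene had 411 to 521 counts against 237 to 410 for Ccnd1. The library kit marked strand with dUTP, but whether counting used strand is not stated, so reads of genes that overlap on opposite strands might not have been told apart.

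Ccnd3 (ENSMUSG00000034165, chromosome 17, 47505051 to 47599691) was at 25.4 and 36.1 CPM in Control and at 38.2 and 17.2 CPM in NT4. The NT4 libraries were the highest and the lowest of the 4, with the Control libraries between them. The highest library exceeded the lowest 2.23-fold in CPM. On normalized log2 CPM the span was 2.17-fold, wider than in 96.1% of the 10057 genes, where the median was 1.25-fold. The log2 difference of NT4 from Control was 0.60 between the libraries numbered 1 and −1.04 between those numbered 2. Its log2 fold change was −0.14 (SE 0.40, edgeR adjusted p 0.9999) with a 95% interval from 0.451-fold to 1.82-fold. The value was −0.81 without NT4 1 and 0.31 without NT4 2. The processed pseudogene Ccnd3-ps held 1 to 12 counts per library, against 1258 to 2665 for Ccnd3. Bysl, on the opposite strand, shares 361 bases of exon with Ccnd3 and held 2155 to 3155 counts, more than Ccnd3 in every library.

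Ccnd2 was then compared with the other D cyclins. Its share of the D cyclin read pairs was 93.8% in Control 1 (95% Wilson interval 93.1% to 94.3%), 91.2% in Control 2 (90.6% to 91.8%), 90.1% in NT4 1 (89.3% to 90.7%) and 95.1% in NT4 2 (94.7% to 95.6%). The intervals cover counting error only, and they are narrower than the distance between the libraries of a group. On the TPM scale, where gene length is taken out, Ccnd2 made up 92.5% and 89.7% of the D cyclins in Control and 88.2% and 93.9% in NT4. The level of Ccnd2 per length was 30.7 to 47.4 times that of Ccnd1 and 9.90 to 23.2 times that of Ccnd3, or 6.47 to 15.1 times that of Ccnd3 with the longest transcript as length. Ccnd2 therefore exceeded each of the others in every library of either group.

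**Figure D2:**
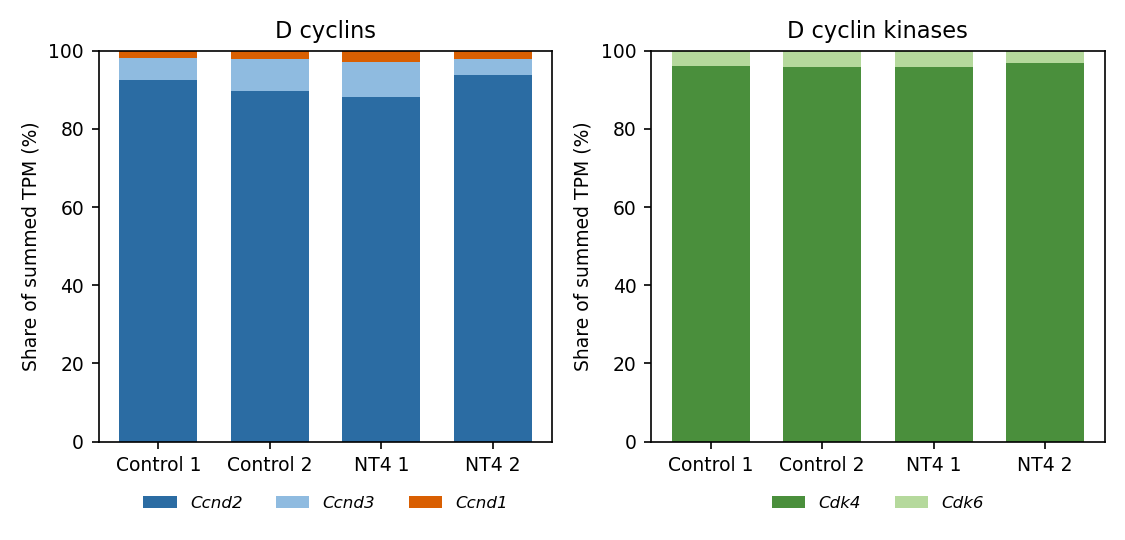
Share of each gene in the summed TPM of the D cyclins (left) and of the kinases they activate (right), in percent, with 1 bar for each library. Ccnd2 takes 88.2% to 93.9% of the D cyclins, and Cdk4 takes 96.0% to 96.9% of the kinase pair.

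The log2 ratio of Ccnd2 to the sum of Ccnd1 and Ccnd3 was 3.91 and 3.37 in the Control libraries and 3.18 and 4.29 in those of NT4. The NT4 libraries were again the lowest and the highest, on either side of the Control libraries. Group means were 3.64 ± 0.38 in Control and 3.73 ± 0.78 in NT4 (SD, n = 2), a difference of 0.09. An exact permutation test over the libraries gave a two-sided p of 1, where the smallest p that 2 libraries against 2 allow is 0.333. The difference was smaller than the SD of either group, and it was 0.36 without Control 1, −0.175 without Control 2, 0.65 without NT4 1, −0.46 without NT4 2 and −0.051 with the geometric mean of Ccnd1 and Ccnd3 in place of their sum. Against Ccnd1 alone it was −0.27 and against Ccnd3 alone it was 0.16.

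Genes whose pattern over the 4 libraries was most like that of Ccnd2 were sought among 10056 genes with a mean of at least 10 CPM. Likeness was the root mean square difference in log2 CPM, after each gene was centred on its own mean. The nearest were R3hcc1l (0.0062), Nr2c2ap (0.0063), Lyrm2 (0.0082), Ranbp3 (0.0092) and Zfp507 (0.0093). Such a ranking over 4 libraries is a description only. Of the other G1 genes, Cdkn1b was nearest to Ccnd2 at 0.061 and Ccnd3 farthest at 0.489, with Ccnd1 below the CPM limit. Among the 10056 genes, 8.15% were closer to Ccnd2 than Cdkn1b was, and 96.8% were closer than Ccnd3 was.

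Cdk4 (ENSMUSG00000006728, chromosome 10, 127063534 to 127067920), the main kinase partner of D cyclins here by transcript level, was at 436 and 451 CPM in Control and at 436 and 496 CPM in NT4. Cdk6 (ENSMUSG00000040274, chromosome 5, 3341485 to 3531008), the other partner, was at 78.2 and 81.7 CPM in Control and at 79.2 and 67.8 CPM in NT4. NT4 2 held the highest value of Cdk4 and the lowest of Cdk6, while the other 3 libraries lay close together for both. Per length, Cdk4 exceeded Cdk6 by 23.7 to 31.5 times. Cdk4 had a log2 fold change of 0.09 (SE 0.13) and Cdk6 one of −0.10 (SE 0.13), each with an edgeR adjusted p of 0.9999. Without NT4 2, the value of Cdk4 was −0.026 and that of Cdk6 −0.014, and without NT4 1 they were 0.19 and −0.21. Cdk4 shares 641 bases of exon with Tspan31 on the opposite strand, which held 3838 to 7210 counts against 21594 to 39042 for Cdk4.

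The promoters of these kinases are shown because their transcripts differed in level although both kinases bind D cyclins. Each window holds 250 bases before and 50 bases after the RefSeq start on GRCm38.p6, plus strand, 5′ to 3′, at chr10:127063285-127063584 for Cdk4 and chr5:3343643-3343942 for Cdk6. Capitals mark matches, on either strand, to the E-box CACGTG, the GC box GGGCGG, the E2F motif TTTNNCGC, the TATA box TATAAA or the cAMP response element TGACGTCA.
Cdk4: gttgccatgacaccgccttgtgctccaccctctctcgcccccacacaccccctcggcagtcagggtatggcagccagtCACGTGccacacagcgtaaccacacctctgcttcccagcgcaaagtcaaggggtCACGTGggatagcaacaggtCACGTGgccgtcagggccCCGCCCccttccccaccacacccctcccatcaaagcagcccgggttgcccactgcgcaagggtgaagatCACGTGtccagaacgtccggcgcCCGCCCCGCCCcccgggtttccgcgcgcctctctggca
Cdk6: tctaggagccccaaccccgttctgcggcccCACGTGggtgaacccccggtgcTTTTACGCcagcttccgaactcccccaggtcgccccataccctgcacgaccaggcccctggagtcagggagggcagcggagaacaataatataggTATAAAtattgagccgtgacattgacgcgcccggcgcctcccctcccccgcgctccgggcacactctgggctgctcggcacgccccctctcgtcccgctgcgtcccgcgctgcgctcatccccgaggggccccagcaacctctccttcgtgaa
Cdk4 held 4 E-boxes and 3 GC boxes, the last 2 of which overlap by 1 base, and none of the other motifs. Cdk6 held 1 E-box, 1 E2F match and 1 TATA match. Of 32851 promoters of this length, 7.15% held the E-box, 35.7% the GC box, 5.17% the E2F motif, 13.6% the TATA box and 1.79% the cAMP response element. At least 4 E-boxes, the number found in the Cdk4 promoter, were present in 8 promoters (0.0244%). Since that cut was taken from Cdk4 itself, this share is a description only. Promoters of 6 of the 10 genes were matched in the RefSeq table used, and those of Ccne1, Cdkn1b, Ccnd3 and Cdkn1a held no E-box or E2F match. A match is not a binding site, and its part in the level of a transcript was not tested. The promoters of Ccnd1, Ccnd2, Ccne2 and Rb1 were not analysed here.

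The E cyclins were lower than Ccnd2 and Cdk4. Ccne1 (ENSMUSG00000002068, chromosome 7, 38097984 to 38107534) was at 12.6 and 14.9 CPM in Control and at 10.9 and 14.6 CPM in NT4. The libraries numbered 2 were above those numbered 1 in both groups, as was the sum of GC markers, and the groups overlapped. NT4 differed from Control by −0.08 (log2, SE 0.23), a value that became 0.12 without NT4 1 and −0.33 without NT4 2. Ccne2 (ENSMUSG00000028212, chromosome 4, 11191351 to 11204779) was at 25.7 and 23.0 CPM in Control and at 25.0 and 24.6 CPM in NT4, the NT4 values lying between those of Control. Its log2 fold change was 0.05 (SE 0.15). Without Control 2 this value was −0.017. Ccne2 shares 609 bases of exon with Ints8 on the opposite strand, which held 3143 to 5009 counts against 1274 to 1936 for Ccne2. Per length, Ccne2 exceeded Ccne1 by 1.18 to 1.75 times in the 4 libraries.

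Cdkn1a (ENSMUSG00000023067, chromosome 17, 29090976 to 29100727), the p53 target p21, was at 49.4 and 40.6 CPM in Control and at 43.6 and 40.9 CPM in NT4. Control 1 stood above the rest and the groups overlapped. NT4 differed from Control by −0.07 (log2, SE 0.15), or by 0.06 once Control 1 was left out.

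Cdkn1b (ENSMUSG00000003031, chromosome 6, 134920401 to 134925513), which encodes p27, was at 51.1 and 47.8 CPM in Control and at 44.9 and 43.3 CPM in NT4. Rb1 (ENSMUSG00000022105, chromosome 14, 73183673 to 73325822) was at 71.1 and 64.2 CPM in Control and at 59.9 and 56.7 CPM in NT4. These were the 2 of 10 genes whose NT4 libraries both lay below both Control libraries, a placement that 12.7% of all genes tested shared. None of the 10 had both NT4 libraries above both Control libraries, against 13.4% of all genes. Cdkn1b had a log2 fold change of −0.15 (SE 0.13, unadjusted p 0.2998 in edgeR's test) and Rb1 one of −0.19 (SE 0.12, unadjusted p 0.175), the smallest p of the 10 genes. The 95% intervals ran from 0.724-fold to 1.13-fold for Cdkn1b and from 0.704-fold to 1.09-fold for Rb1. Neither difference passed the test. Rb1 shares 488 bases of exon with Rcbtb2 and 408 with Lpar6, both on the opposite strand. Rcbtb2 held 4033 to 5162 counts against 3523 to 4732 for Rb1, and it was at 81.4 and 70.0 CPM in Control and at 67.7 and 62.8 CPM in NT4, likewise lower in both NT4 libraries. Its part in the values of Rb1 was not tested. Lpar6 held 833 to 1170 counts.

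The comparison of NT4 with Control asked how neurotrophin-4 changed these transcripts. All 10 genes passed the filter on low counts. By edgeR's quasi-likelihood test, 0 of 10 passed an adjusted p of 0.05, as did 0.00% of the 19259 genes tested. At an unadjusted p under 0.05 there were 0 of 10 genes, against 1.99% of all genes. The study's criterion of a fold of 2 and an unadjusted p under 0.05 was met by 0 of 10, against 1.08% of all genes. The DESeq2 Wald test, edgeR's exact test and limma voom also called 0 of the 10, while over all genes they called 65, 59 and 0. A log2 fold change above 0 was found for 3 of the genes and below 0 for 7, with a median of −0.08, beside a median of 0.0045 over all genes. The 95% intervals of 7 of the 10 genes excluded a 1.5-fold change in either direction, and those of Ccnd1, Ccnd3 and Ccne1 did not. The share of all genes with such intervals was not counted, so this describes precision and is not particular to the G1 genes.

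**Figure D3:**
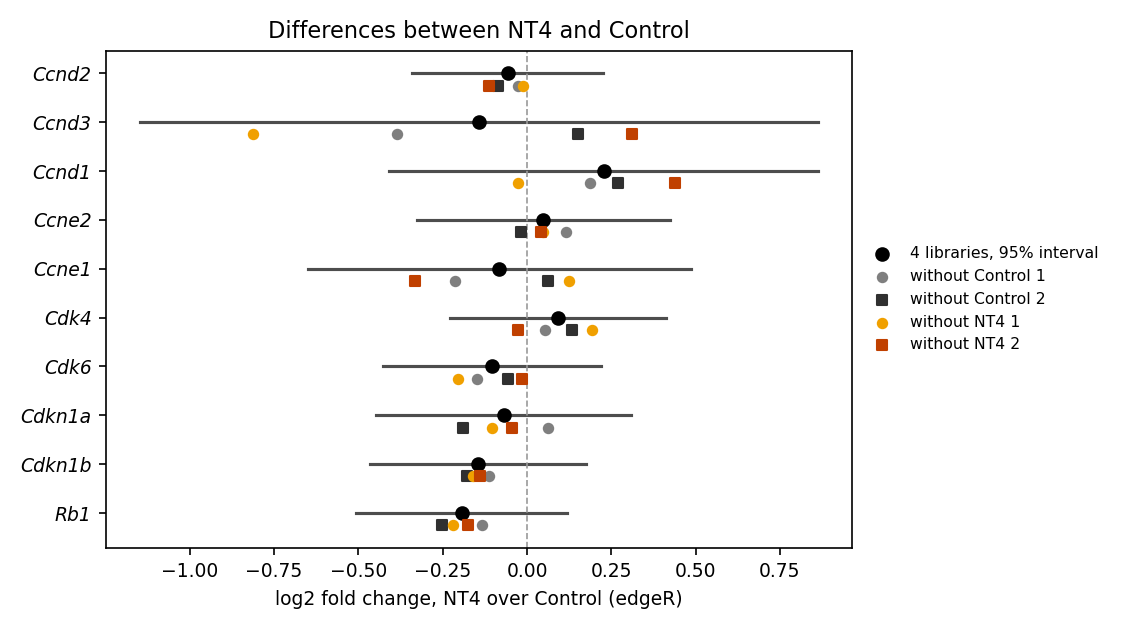
The log2 fold change of NT4 over Control for the 10 genes from edgeR (black points) with its 95% interval (lines), and the value with each library left out (coloured points below). All 10 intervals include 0, and the values for Ccnd3 run from −0.81 to 0.31 with a library left out.

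Other genes of the pathway were described from lists written by hand. Partners of the 10 genes comprised 30 other kinases, inhibitors, E2F factors, pocket proteins and regulators of cyclin turnover. By edgeR's quasi-likelihood test, 0 of them passed the adjusted p, as did 0.00% of all genes tested. An unadjusted p under 0.05 was found for 0 of them, against 1.99% of all genes. The median log2 fold change of the partners was 0.03. Cdk2, the partner of E cyclins, was at 63.7 and 37.1 CPM in Control and at 36.1 and 34.2 CPM in NT4, so that Control 1 stood apart from the rest. Its log2 fold change was −0.50 (SE 0.26). Cdc25a, a phosphatase that activates CDK2, was at 57.8 and 54.5 CPM in Control and at 58.6 and 25.8 CPM in NT4, with NT4 2 alone being low. Fbxo4, a ubiquitin ligase subunit reported to act on cyclin D1, was at 13.2 and 13.6 CPM in Control and at 15.7 and 15.0 CPM in NT4 (log2 fold change 0.21, SE 0.16). Among the INK4 inhibitors, which act on CDK4 and CDK6, Cdkn2c ranged from 19.4 to 27.2 CPM and Cdkn2a from 0.48 to 0.83 CPM.

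E2F targets of S phase entry, 19 genes with those of replication licensing and nucleotide supply among them, had a median log2 fold change of −0.09. Of these, 4 were above 0 and 15 below 0, where 49.0% of all genes tested were below 0. In edgeR's test, 0 of the 19 passed the adjusted p, and 0 had an unadjusted p under 0.05, against 1.99% of all genes. In 5 of the 19, namely Mcm4, Mcm6, Cdt1, Pola1 and Orc1, both NT4 libraries lay below both Control libraries, against 12.7% of all genes tested. Of the 10 theca and stroma markers, 8 were higher in both NT4 libraries than in both Control libraries, against 13.4% of all genes. The part of these markers in the values of the list was not tested. Cdt1, a licensing factor, was at 44.0 and 32.1 CPM in Control and at 30.1 and 29.5 CPM in NT4 (log2 fold change −0.33, SE 0.19). Orc1, an origin recognition subunit, was at 11.4 and 10.8 CPM against 9.37 and 9.76 CPM (−0.19, SE 0.17). Tyms, thymidylate synthase, was at 52.8 and 45.3 CPM against 47.7 and 65.3 CPM (0.23, SE 0.20). The list summed to 2121 and 2186 CPM in Control and to 1947 and 2126 CPM in NT4. The lowest library, NT4 1, was also the lowest in the sum of GC markers, though not in Amh, Amhr2 and Kitl. Among the G1 genes, NT4 1 was lowest in CPM for Ccnd2, Ccne1 and Cdk4, and highest for Ccnd1 and Ccnd3. For the remaining G1 genes NT4 1 was neither.

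The p53 targets other than Cdkn1a numbered 15, with a median log2 fold change of 0.0069, 8 of them above 0 and 7 below 0. Btg2 was at 125 and 96.3 CPM in Control and at 122 and 162 CPM in NT4 (0.39, SE 0.20). Bbc3, which encodes the death protein PUMA, was at 5.07 and 4.39 CPM against 3.63 and 3.21 CPM (−0.45, SE 0.24), and Trp53inp1 was at 129 and 122 CPM against 119 and 93.2 CPM (−0.22, SE 0.15). FOXO factors repress D cyclins and induce Cdkn1b in many cells. The list of FOXO genes and targets had a median of −0.05 over 10 genes, 3 above 0 and 7 below 0. Foxo3 was at 112 and 118 CPM in Control and at 109 and 90.4 CPM in NT4 (−0.19, SE 0.13), and the groups overlapped for Klf2 (0.23, SE 0.21) and Txnip (0.29, SE 0.28). In edgeR's test, 0 genes of either list passed the adjusted p, as did 0.00% of all genes tested. For an unadjusted p under 0.05 the count was also 0 in either list, against 1.99% of all genes. Of all genes tested, 49.0% had a log2 fold change below 0.

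**Figure D4:**
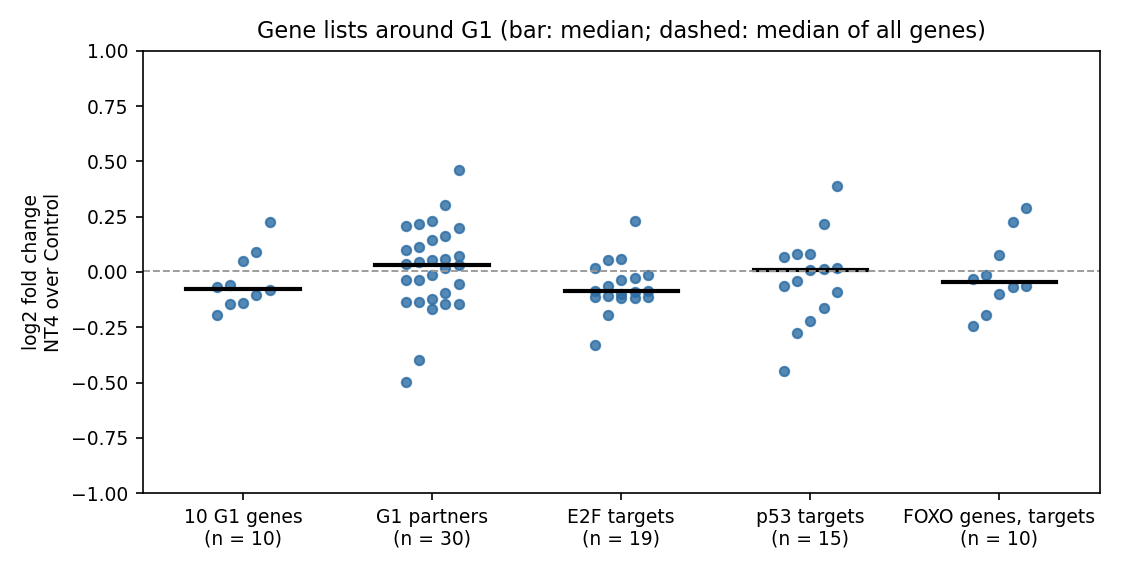
The log2 fold change of NT4 over Control for each gene (points) of the 10 G1 genes and the 4 lists around them, with the median of each list (bars) and of all genes tested (dashed line). Medians lie between −0.09 and 0.03.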

How the data were processed

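Bulk RNA-seq of 4 GC libraries was analysed, 2 from follicles grown with NT-4 and 2 without. The members and lists were chosen with earlier results of these data known. By their methods, the authors removed low-quality reads with Cutadapt, mapped the rest with HISAT2 to mouse Ensembl v99 (mm10 per the labels), and assembled and estimated transcripts with StringTie and ballgown. The values deposited by the authors are expected counts per gene, whole numbers without normalization. How they were made whole, and whether counting used the strand that the dUTP library kit marks, is not given in the sources used here. Low values piled up at 4, 8 and 12 (45.4% to 46.2% of values from 1 to 12), so 4 counts were taken as 1 read pair. The series table and the 4 single-library files were identical.

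Symbols matched 55144 of 55385 identifiers. Exon lengths, for TPM, came from GENCODE M21 on GRCm38 by identifier. Tests used R 4.3.3 with edgeR 4.0.16 (quasi-likelihood, TMM, default filter on low counts, Benjamini-Hochberg over 19259 genes, group alone, two-sided), as the study used edgeR, and the procedure was tested on simulated data. Intervals of 95% come from the same fit. Log2 CPM for likeness used a prior count of 2, and the D cyclin ratio used read pairs plus 0.5. All 10 genes were named, with, per pathway list, the 3 genes of smallest unadjusted p (other genes were named after their values were seen). Alternatives were DESeq2 1.42.0, limma 3.58.1 (voom), edgeR's exact test, other scalings and filters, counts divided by 4, the replicate block, a threshold of 0.1, other ratios and lengths, and each library left out.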

Additional observations from a re-analysis of the deposited data

How the results depend on the processing

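The count of G1 genes past the adjusted threshold stayed at 0 in 10 alternative fits on all 4 libraries and at a threshold of 0.1. Over all genes, the DESeq2 Wald test called 65 and edgeR's exact test 59 of 19259. The fit without a filter on low counts called 10 of 27099, and the other fits on all 4 libraries called 0. In the 10 fits on all 4 libraries, 100 of 100 log2 fold changes kept their direction. These fits reuse the same counts and are not independent of each other. With a library left out, 8 of 40 reversed, in 6 genes, whose values ranged from −0.028 to 0.44 for Ccnd1, −0.81 to 0.31 for Ccnd3, −0.33 to 0.12 for Ccne1, −0.017 to 0.12 for Ccne2, −0.026 to 0.19 for Cdk4 and −0.19 to 0.062 for Cdkn1a. The cause was not tested. Ccnd2 (−0.11 to −0.01), Cdk6 (−0.21 to −0.01), Cdkn1b (−0.18 to −0.11) and Rb1 (−0.25 to −0.13) did not reverse. Ccnd3 moved furthest, to −0.81 without NT4 1. With 1 library left in a group, its spread is taken from the other group, so no p-value is given for these fits.

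The D cyclin ratio, 0.09, was −0.051 with the geometric mean of Ccnd1 and Ccnd3 and −0.27 against Ccnd1 alone, and it ranged from −0.46 without NT4 2 to 0.65 without NT4 1. The cause was not tested. Counts per kilobase, Ccnd3 alone and other pseudocounts kept its sign. The mean share of Ccnd2 in D cyclin TPM, 91.1%, was 88.3% with the longest transcript as length, which also put Ccnd3 (mean 16.2 TPM) above Cdk6 and Ccne1 and separated the ranges of Cdkn1a, Rb1 and Cdkn1b. Summing genes that overlap on the same strand was not run, because no G1 gene shares exons on its strand.

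The labels share replicate numbers but state no pairing. Deviations of same-numbered libraries correlated at 0.14 over 19259 genes. With the replicate block, 0 of the 10 genes passed, the smallest unadjusted p was 0.110 (Rb1) and Ccnd3 was at −0.22. The mean difference of the D cyclin ratio within numbers, 0.092, equals the difference of the group means by construction, so it is no further check. With 2 libraries a group, precision is limited to the intervals given.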
